A study of Homo sapiens with 6 samples.

Results

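The HOX genes of the HOXA, HOXB, HOXC and HOXD clusters were examined by RNA sequencing in SK-N-BE(2), a human neuroblastoma line kept in culture. They were taken as every row of the deposited gene table whose name is HOX, a cluster letter and a paralog number, which gave 39 genes of 19937 rows: 11 of HOXA, 10 of HOXB, 9 of HOXC and 9 of HOXD. The series compared 3 libraries titled sgcon with 3 titled sgGPR91, the latter from cells in which GPR91, the succinate receptor encoded by SUCNR1, was targeted. All 6 libraries came from drug-treated cells, without an untreated library among them. The treatment tags give doxorubicin at 100 nmol/L for 48 hours, and the growth protocol gives DOX at 1.5 µg/ml for the same time. The labels do not say whether the targeted cells were a clone or a pool. The genotype tags contradict the titles, with the sgcon libraries tagged GPR91 knockout and the sgGPR91 libraries tagged Control. The titles were followed, so higher and lower refer to the libraries labelled sgGPR91 against the sgcon libraries, and would swap under the tags.

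HOX genes encode transcription factors that bind DNA through a homeodomain. Within a cluster they lie in the order of their paralog numbers, and in the embryo the low numbers at the 3′ end act early and toward the head, the high numbers at the 5′ end late and toward the tail. Cells tend to keep the HOX pattern of the body level they came from, with Trithorax-side proteins such as KMT2A holding genes active, Polycomb-side proteins holding them silent, and PBX and MEIS proteins binding DNA together with HOX proteins. Neuroblastoma arises from the sympathoadrenal lineage of the trunk neural crest.

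Libraries held 7070189 to 10252425 counted reads, so 3 reads amounted to at most 0.424 CPM (reads scaled to a common library size). Libraries of the same group correlated at 0.985 to 0.992 across genes, and libraries of different groups at 0.949 to 0.956. SUCNR1 had 3 reads in the sgcon libraries and 1 in the sgGPR91 libraries, too few to check the labels. The 14 adrenergic neuroblastoma markers all passed the count filter, 3 called higher and 10 lower in sgGPR91 by edgeR. Over all genes tested, 20.2% were called higher and 21.0% lower. The summed levels of these markers were 7408 to 8308 CPM in sgcon and 5627 to 6109 CPM in sgGPR91. Schwann cell or glial markers summed to 3.69 to 6.66 CPM in sgcon and 7.26 to 9.79 CPM in sgGPR91, with CDH19 and FOXD3 at 0. Epithelial markers summed to 12.6 to 18.2 and 7.95 to 10.4 CPM, fibroblast markers to 1031 to 1135 and 963.1 to 967.1 CPM. Immune markers reached at most 3.41 CPM and endothelial markers at most 1.14 CPM. The part of these marker levels in the HOX differences was not tested.

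The HOX genes divided by cluster into those without reads and those with reads. All 11 HOXA and all 10 HOXB genes had 0 reads in every library, as had HOXC12, HOXC13, HOXD11 and HOXD12. These 25 genes are 64.1% of the members, and 17.1% of all table rows (3402) were likewise at 0 among 51924598 reads. A further 1199 rows held only 1 to 3 reads over all libraries. The 21 HOXA and HOXB genes all lie on the minus strand, and all HOXC and HOXD genes on the plus strand. Over the whole table, 17.2% of minus-strand and 16.9% of plus-strand rows were at 0. These shares are averages over all rows, and the part of strand in the HOX counts was not tested. A count of 0 allows up to 3 reads, which for these members amounts to 0.0394 to 0.330 FPKM (reads per kilobase of listed gene length, scaled to the library total), depending on gene length and library. This limit covers counting error only. Whether the counting dropped reads of these genes was not tested. Antisense genes overlap 62.5% of the annotated exon bases of HOXA7 and 39.3% of those of HOXA6. Of HOXA4, 31.0% are overlapped on the same strand. The exons of HOXA2, HOXA5, HOXB1, HOXB7, HOXB8, HOXB9, HOXB13, HOXC12 and HOXD12, likewise at 0, overlap no other annotated gene.

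**Figure D1:**
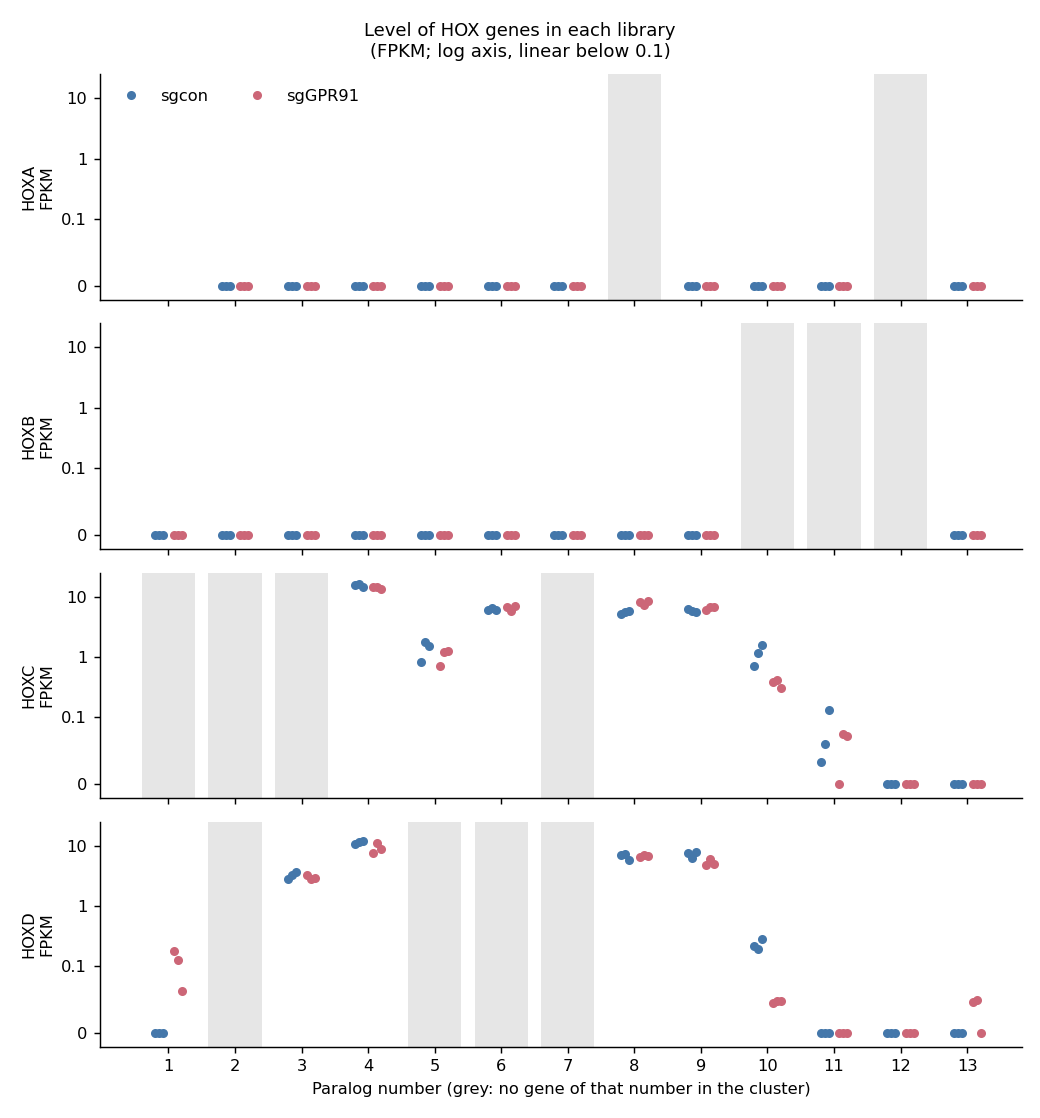
Level of HOX genes in each library as deposited FPKM (vertical axis, logarithmic above 0.1 and linear below) against paralog number, with 1 panel per cluster, 1 point per library for each gene drawn and grey bands where a cluster has no gene of that number. The HOXA and HOXB genes drawn lie at 0, and the reads come from HOXC4 to HOXC11 and from HOXD1 to HOXD10 and HOXD13.

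The HOXA and HOXB genes lay in unbroken stretches of rows at 0, with genes that had reads on either side. The HOXA stretch on chromosome 7 ran over 13 rows and ended with EVX1, the even-skipped-type homeobox gene beyond HOXA13. The nearest tested genes were SNX10, an endosomal sorting nexin gene 718.6 kb before the cluster, and HIBADH, a valine-breakdown enzyme gene 325.4 kb after HOXA13. HIBADH averaged 25.2 FPKM over the 6 libraries and SNX10 0.4498 FPKM. The HOXB stretch on chromosome 17 also held 13 rows, from the T-cell adaptor gene SKAP1 to HOXB13, and included PRAC1 and PRAC2. Its nearest tested neighbours were SNX11, 404.9 kb before HOXB1, at 4.60 FPKM, and CALCOCO2, an autophagy receptor gene 102.3 kb after HOXB13, at 12.4 FPKM. Stretches of 13 or more rows at 0 occurred 26 times in the table, the longest with 48 rows, and many of the others were olfactory receptor or keratin gene clusters.

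**Figure D2:**
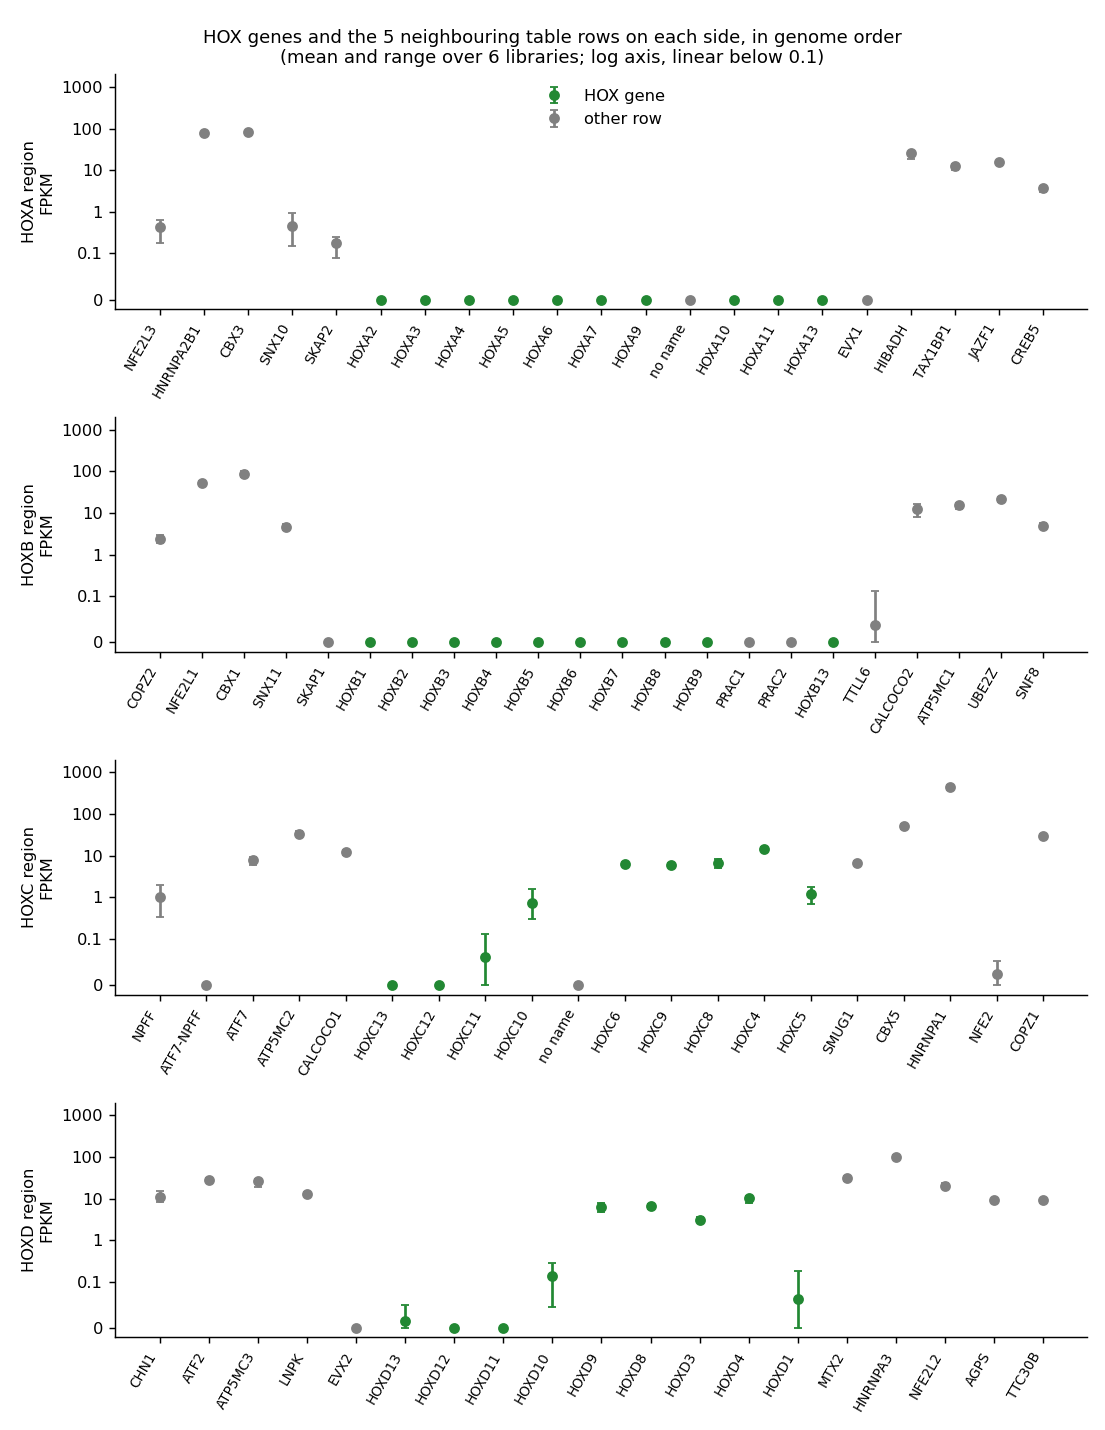
HOX genes and the 5 table rows on each side of each cluster in genome order, with the mean and the lowest and highest FPKM over the 6 libraries (vertical axis in FPKM, logarithmic above 0.1 and linear below). The HOXA and HOXB stretches at 0 end at rows with reads, whereas HOXC and HOXD carry reads in their middle and lower-numbered genes.

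In HOXC and HOXD the reads came from a block that broke off toward the 5′ end. HOXC4, HOXC6, HOXC8 and HOXC9 averaged 14.7, 6.34, 6.75 and 6.15 FPKM over the 6 libraries, with HOXC5 at 1.20 FPKM. The level then dropped to 0.748 FPKM at HOXC10 and 0.0618 FPKM at HOXC11, and no read fell on HOXC12 or HOXC13. In HOXD, HOXD3, HOXD4, HOXD8 and HOXD9 averaged 3.09, 10.2, 6.66 and 6.23 FPKM. Beyond HOXD9 the level was 0.141 FPKM at HOXD10 and 0 at HOXD11 and HOXD12. At the ends of HOXD, HOXD13 had 2 reads and HOXD1 had 6 over all libraries. HOXD13 patterns the distal limb and HOXD1 belongs to the paralog group that acts in the hindbrain. EVX2, the homeobox gene next to HOXD13, had no read.

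The promoter windows around the HOXD break are shown, with that of HOXC4, because they belong to HOX genes at a high, a trace and a zero level. They are RefSeq windows of 300 bases (GRCh38.p14, 250 before to 50 after the RefSeq start), given 5′ to 3′ on the plus strand. Capitals mark CG pairs. The windows lie at chr2:176129455-176129754 for HOXD8, chr2:176116528-176116827 for HOXD10, chr2:176099545-176099844 for HOXD12 and chr12:54016638-54016937 for HOXC4, which is also the window listed for HOXC5. The deposited start of HOXD10 is 176108790 and that of HOXC5 is 54033050, both outside the window given for the gene.
HOXD8 promoter: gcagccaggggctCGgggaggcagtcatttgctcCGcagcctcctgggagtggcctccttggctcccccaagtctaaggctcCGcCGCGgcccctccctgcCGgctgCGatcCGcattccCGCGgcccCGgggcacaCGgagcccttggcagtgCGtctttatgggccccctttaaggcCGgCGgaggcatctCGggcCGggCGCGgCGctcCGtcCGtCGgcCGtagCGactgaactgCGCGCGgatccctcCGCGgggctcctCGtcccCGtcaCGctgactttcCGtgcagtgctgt
HOXD10 promoter: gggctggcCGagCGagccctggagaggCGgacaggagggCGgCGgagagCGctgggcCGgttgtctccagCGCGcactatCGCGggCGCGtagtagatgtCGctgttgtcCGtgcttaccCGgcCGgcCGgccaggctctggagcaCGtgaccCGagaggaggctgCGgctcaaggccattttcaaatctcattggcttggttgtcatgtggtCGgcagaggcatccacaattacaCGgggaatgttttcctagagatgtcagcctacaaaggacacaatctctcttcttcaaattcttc
HOXD12 promoter: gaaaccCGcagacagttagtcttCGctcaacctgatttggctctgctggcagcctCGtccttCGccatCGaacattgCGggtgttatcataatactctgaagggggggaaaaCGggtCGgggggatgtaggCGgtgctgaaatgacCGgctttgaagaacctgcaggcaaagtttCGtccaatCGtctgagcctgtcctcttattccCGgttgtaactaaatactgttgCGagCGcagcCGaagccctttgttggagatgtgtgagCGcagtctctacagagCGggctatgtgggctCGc
HOXC4 promoter: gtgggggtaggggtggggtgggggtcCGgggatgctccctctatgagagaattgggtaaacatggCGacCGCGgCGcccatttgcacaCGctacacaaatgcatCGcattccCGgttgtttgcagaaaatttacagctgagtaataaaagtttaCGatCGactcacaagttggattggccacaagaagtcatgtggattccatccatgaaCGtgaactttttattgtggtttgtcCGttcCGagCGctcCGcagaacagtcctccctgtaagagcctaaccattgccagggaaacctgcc
HOXD8 held 34 CG pairs, HOXD10 23, HOXD12 19 and HOXC4 15. The RefSeq table matched 20 of the 39 members with 26 distinct windows, whose median was 22.5 CG pairs against 14 over all 35116 windows. The 19 windows of members at 0 had a median of 21 and the 4 windows of tested members a median of 20. Their ranges of 0 to 44 and 4 to 34 overlapped. The 19 windows come from only 12 genes, with several from HOXA3, and HOXC8, HOXC10 and HOXD9 had no window. The TATA-type word TATAAA, searched on both strands, was in 5 of the 26 HOX windows (19.2%) and in 11.5% of all windows. The word TGATTNAT, the joint PBX and HOX recognition word, was in 2 of the 26 (7.69%) and in 2.82% of all. Neither word was in the 4 windows of tested members, which says only that these letters are not in these windows.

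Ranked by mean FPKM, the 10 members that passed the count filter began with HOXC4. Its 6 libraries ranged from 13.4 to 16.0 FPKM, above every value of any other HOX gene, and its mean stood at percentile 84.2 of all table rows. HOXD4 was second with 7.64 to 11.7 FPKM and lay above HOXC8, the third, in 5 of 6 libraries. HOXC8, HOXD8, HOXC6, HOXD9 and HOXC9 followed with means of 6.75 to 6.15 FPKM, and neighbours among these 5 were not separated, since each range over the 6 libraries overlapped the next. The order of these 5 differed by group. In sgcon the means ran from HOXD9 (7.20 FPKM) over HOXD8, HOXC6 and HOXC9 to HOXC8 (5.51 FPKM), and in sgGPR91 from HOXC8 (7.99 FPKM) over HOXD8, HOXC6 and HOXC9 to HOXD9 (5.25 FPKM). In sgGPR91 the HOXC8 libraries, at 7.37 to 8.49 FPKM, lay above every library of the other 4, the highest of which was 7.03 FPKM. HOXD3 came below them without overlap at 2.77 to 3.60 FPKM, and HOXC5 and HOXC10 were lowest, with overlapping ranges of 0.699 to 1.76 and 0.3002 to 1.55 FPKM. The mean of the median tested gene in the table was 6.56 FPKM.

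Genes of the same paralog number differed by cluster. In group 4, HOXC4 and HOXD4 had the highest mean FPKM of all HOX genes, as far as listed lengths allow, while HOXA4 and HOXB4 had no read. In group 8, HOXC8 and HOXD8 averaged 6.75 and 6.66 FPKM and HOXB8 had no read. In group 9, HOXD9 and HOXC9 averaged 6.23 and 6.15 FPKM and HOXA9 and HOXB9 had no read. Groups 1, 2, 7, 11, 12 and 13 had no tested member.

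Between the groups of libraries, 3 of the 10 tested members passed edgeR's quasi-likelihood test at a Benjamini-Hochberg adjusted p under 0.05 over all genes. HOXC8 was higher in sgGPR91, and HOXC10 and HOXD9 were lower. In the table as a whole, 41.1% of the 12701 genes tested were called, with 20.2% higher and 21.0% lower, so the share of HOX genes called was no larger than the background. The libraries of the groups did not overlap for the same 3 members, and for 50.9% of all genes tested. The median log2 fold change was -0.15 over the 10 members and -0.0055 over all genes tested. In bulk RNA, fewer cells with a transcript and less of it per cell cannot be told apart. The count covers only the 10 members that passed the filter and not the 39. HOXC10 passed it through the sgcon libraries alone. The other 7 had log2 fold changes of -0.38 to 0.13, with adjusted p of 0.1495 or more.

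**Figure D3:**
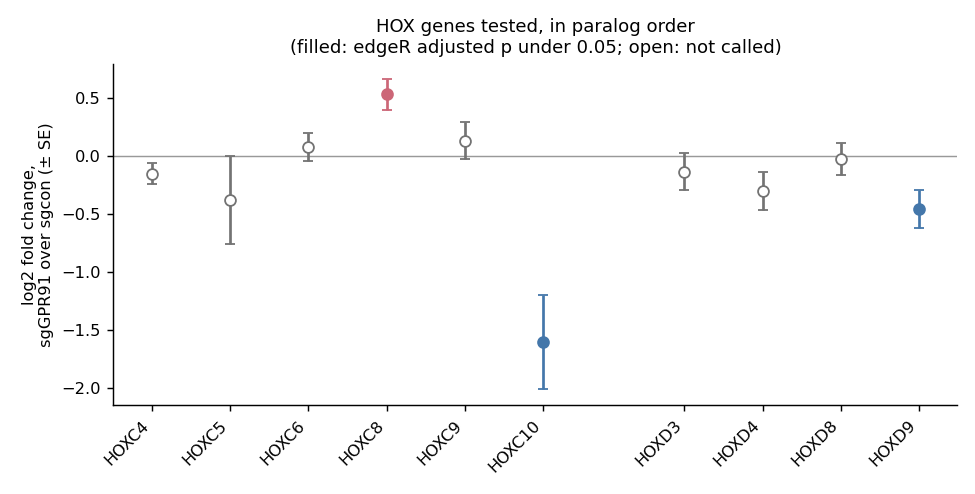
Log2 fold change of the libraries labelled sgGPR91 over those labelled sgcon, with its standard error, for the 10 HOX genes tested, in paralog order within HOXC and HOXD. Filled points were called by edgeR and open points were not; HOXC8 lies at 0.53, HOXD9 at -0.46 and HOXC10 at -1.60.

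HOXC8, a trunk-level gene that acts in motor neuron and rib patterning, rose. The sgcon libraries had 12.8, 13.8 and 13.6 CPM in replicates 1, 2 and 3. The sgGPR91 libraries had 19.8, 17.7 and 20.4 CPM. Every sgGPR91 library lay above every sgcon library. The group means were 13.4 ± 0.538 and 19.3 ± 1.43 CPM (SD, n = 3 per group), a log2 fold change of 0.53 ± 0.13 (SE), or 1.44-fold higher (edgeR adjusted p = 0.00403). HOXC8 thereby went from 15.5% ± 0.761 to 21.9% ± 1.10 of the summed HOXC level in FPKM (SD, n = 3).

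The exons of HOXC8 overlap no other gene annotated in GENCODE version 29, whose HOXC8 model, with 1889 exon bases, is shorter than the length of 2417 listed in the deposited table. Over all 39 members, the homeoboxes, the stretches of 180 bases that encode the DNA-binding homeodomain, were 81.7% identical in the median between genes of the same paralog number (42 pairs) and 60.6% between genes of different number (699 pairs).

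HOXC10, which lies at the 5′ edge of the HOXC block and acts at lumbar level, fell. The reads were few, 15, 28 and 26 in the sgcon libraries and 8, 8 and 6 in the sgGPR91 libraries. Scaled to library size these were 1.68, 2.77 and 3.61 CPM in sgcon and 0.908, 0.968 and 0.708 CPM in sgGPR91. The groups did not overlap, and the sgcon libraries spread more widely than the sgGPR91 libraries. The means were 2.68 ± 0.967 and 0.861 ± 0.136 CPM (SD, n = 3 per group), a log2 fold change of -1.60 ± 0.41 (SE), or 3.04-fold lower (edgeR adjusted p = 0.00495). On the log2(FPKM + 1) scale, which understates changes of low genes, the difference was -0.63, and with a filter of 30 reads in 3 libraries HOXC10 was not tested. In the main fit HOXC10 passed the filter, with its minimum count of 10, through the sgcon libraries alone. It was thus tested only because of the group where it was high. Fitted without the filter, edgeR gave HOXC10 an adjusted p of 0.00378.

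Its paralog HOXD10 had 5 reads in each sgcon library and 1 in each sgGPR91 library. The difference went the same way as that of HOXC10, but HOXD10 did not pass the count filter. The ratio of sgcon to sgGPR91 was 4.83, with a 95% exact binomial interval of 1.37 to 26.0 that covers counting error only. Fitted without the filter, edgeR gave it an adjusted p of 0.0861. The homeoboxes of HOXC10, HOXD10 and HOXA10, the last without reads, are shown for how far they are alike, since reads from long shared stretches can be misassigned. They lie in exon 2 of 2 at chr12:53989219-53989398 (plus strand), chr2:176119004-176119183 (plus strand) and chr7:27171947-27172126 (minus strand; GENCODE version 29, GRCh38). The 180 bases run 5′ to 3′ on the coding strand, and capitals mark bases that differ from HOXC10.
HOXC10 homeobox: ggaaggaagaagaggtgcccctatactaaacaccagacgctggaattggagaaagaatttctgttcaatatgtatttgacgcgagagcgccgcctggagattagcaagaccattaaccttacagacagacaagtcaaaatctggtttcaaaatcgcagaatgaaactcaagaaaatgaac
HOXD10 homeobox: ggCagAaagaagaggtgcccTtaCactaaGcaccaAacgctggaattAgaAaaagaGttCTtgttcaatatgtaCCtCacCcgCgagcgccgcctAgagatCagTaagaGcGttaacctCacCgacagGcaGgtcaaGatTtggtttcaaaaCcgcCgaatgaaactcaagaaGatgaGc
HOXA10 homeobox: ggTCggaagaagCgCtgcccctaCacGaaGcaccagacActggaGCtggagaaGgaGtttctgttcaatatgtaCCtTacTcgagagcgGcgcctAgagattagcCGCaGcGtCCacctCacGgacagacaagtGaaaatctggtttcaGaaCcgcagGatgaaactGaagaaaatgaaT
HOXD10 differed from HOXC10 at 31 of 180 bases (82.8% identical) and HOXA10 at 33 (81.7% identical). Among transcripts annotated as protein coding, no other HOX gene shared more than 23 bases in a row with HOXC10. Over all annotated transcripts, of the HOXC10 exons 7.12% overlap a gene on the same strand and 2.70% the antisense gene HOXC-AS3, and of the HOXD10 exons 16.8% are shared with HOXD11, which had no read. The labels do not say whether counting used strand, so reads of a gene and its antisense partner cannot be told apart.

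HOXD9, the last well-expressed gene before the HOXD break, fell. The sgcon libraries had 14.2, 11.8 and 14.6 CPM in replicates 1, 2 and 3. The sgGPR91 libraries had 8.97, 11.1 and 9.32 CPM. The groups did not overlap, but the lowest sgcon library and the highest sgGPR91 library, both replicate 2, were close. The means were 13.5 ± 1.52 and 9.81 ± 1.16 CPM (SD, n = 3 per group), a log2 fold change of -0.46 ± 0.16 (SE), or 1.37-fold lower (edgeR adjusted p = 0.0329). The call was lost with DESeq2 (adjusted p = 0.0809). It was also lost in edgeR without sgGPR91 replicate 1 (adjusted p = 0.113) or 3 (0.104) and without sgcon replicate 1 (0.0805) or 3 (0.0679).

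The homeobox of HOXD9 is shown with that of HOXC9, the paralog at nearly the same level, which was not called. They lie in exon 2 of 2 at chr2:176123969-176124148 and chr12:54002465-54002644 (plus strand, GENCODE version 29, GRCh38), and capitals mark, 5′ to 3′, bases that differ from HOXD9.
HOXD9 homeobox: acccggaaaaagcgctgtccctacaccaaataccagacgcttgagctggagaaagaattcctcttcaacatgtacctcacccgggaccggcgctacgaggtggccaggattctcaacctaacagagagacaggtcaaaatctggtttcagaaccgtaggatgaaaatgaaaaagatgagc
HOXC9 homeobox: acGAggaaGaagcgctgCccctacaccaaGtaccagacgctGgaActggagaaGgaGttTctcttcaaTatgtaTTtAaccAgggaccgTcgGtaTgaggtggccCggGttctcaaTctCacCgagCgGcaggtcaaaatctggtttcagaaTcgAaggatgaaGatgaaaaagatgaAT
The pair differed at 30 of 180 bases (83.3% identical). HOXC9 stood at 9.77 ± 0.701 CPM in sgcon and 10.7 ± 0.683 CPM in sgGPR91 (SD, n = 3 per group), with a log2 fold change of 0.13 ± 0.16 (SE) and an edgeR adjusted p of 0.540. The longest stretch shared between a protein-coding HOXD9 transcript and one of another HOX gene was 40 bases, with HOXB9, which had no read.

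**Figure D4:**
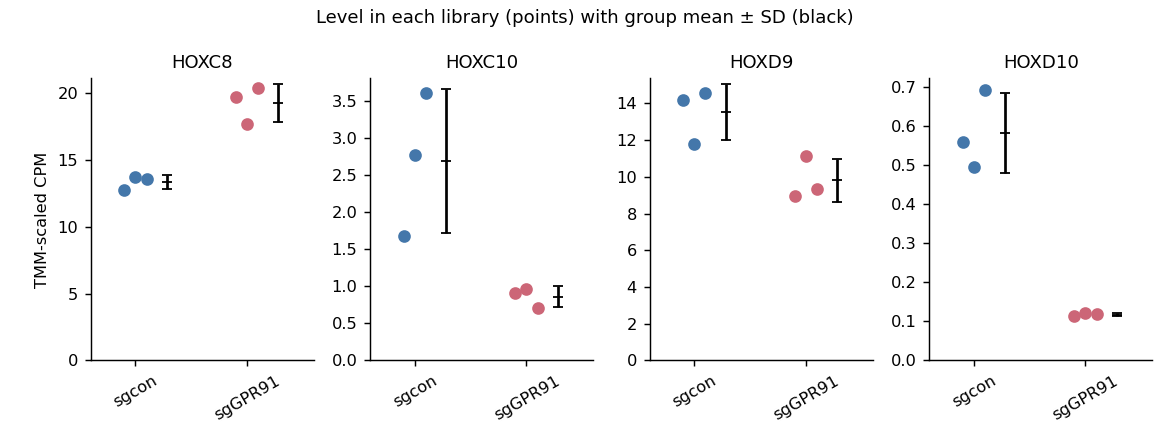
TMM-scaled CPM of HOXC8, HOXC10, HOXD9 and HOXD10 in each library, with the mean and SD of the 3 libraries per group. HOXC8 is higher in the libraries labelled sgGPR91, HOXC10 and HOXD9 are lower, and HOXD10, with 1 read in each sgGPR91 library, was not tested.

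The remaining tested members were not called. HOXC4, the cervical-level gene with the highest HOX level, had 44.0, 45.01 and 39.5 CPM in sgcon and 39.8, 39.0 and 36.8 CPM in sgGPR91. The groups overlapped, and the log2 fold change was -0.16 ± 0.091 (SE; edgeR adjusted p = 0.186). HOXD4, the highest of HOXD in mean FPKM, had 12.1, 13.3 and 13.04 CPM in sgcon and 8.74, 12.3 and 10.03 CPM in sgGPR91. Its groups overlapped through sgGPR91 replicate 2, with a log2 fold change of -0.30 ± 0.16 (SE; edgeR adjusted p = 0.1495). HOXC5, HOXC6, HOXD3 and HOXD8 had log2 fold changes of -0.38, 0.079, -0.14 and -0.030. HOXC5 had only 10 to 29 reads per library, and its difference carried a standard error of 0.38.

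Some of these members share exons with other genes. HOXC4 shares 17.8% of its exon bases with HOXC6, and HOXC6 shares 15.7% with HOXC4 and HOXC9, and the division of reads among these genes is uncertain. Of HOXD4 80.5% and of HOXD3 62.2% of exon bases are overlapped on the same strand by a further annotated gene, AC009336.2, and of HOXC5 59.9% by same-strand transcripts. Their levels are therefore less certain than those of HOXC8, HOXD8 and HOXD9, whose exons overlap no other gene in GENCODE version 29, where the starts of HOXC8 and HOXD9 and the end of HOXC8 differ from the deposited table.

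Of the members with reads that were not tested, HOXC11 had 6 reads in sgcon and 4 in sgGPR91, a ratio of 1.45 with a 95% exact binomial interval of 0.343 to 6.98. HOXD1 had no read in sgcon and 3, 2 and 1 in the sgGPR91 libraries. Against a floor of 3 reads over the sgcon group this amounts to 2.07-fold. That value takes the sgGPR91 reads as exact, so it is not a lower limit of the difference. Fitted without the filter, edgeR gave HOXD1 an adjusted p of 0.0907. Of the HOXD1 exons 58.1% are overlapped by antisense genes such as HAGLR. HOXD13 had 2 reads, both in sgGPR91, and no fold is given.

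Summed over a cluster, HOXC stood at 92.4 ± 4.46 CPM in sgcon and 93.9 ± 2.89 CPM in sgGPR91 (SD, n = 3 per group), with overlapping libraries. HOXD had 56.4, 57.2 and 56.0 CPM in the sgcon libraries and 47.2, 52.0 and 47.4 CPM in the sgGPR91 libraries. All sgGPR91 libraries lay below all sgcon libraries, and the ratio of the means was 0.865. Among single genes tested, 50.9% likewise had groups that did not overlap. The HOXD sum holds HOXD9, already called lower (13.5 and 9.81 CPM), so it is no evidence separate from that call. HOXD4, not called, stood at 12.8 and 10.4 CPM, and HOXD8 at 17.7 and 17.4 CPM in sgcon and sgGPR91. No test was run on these sums.

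**Figure D5:**
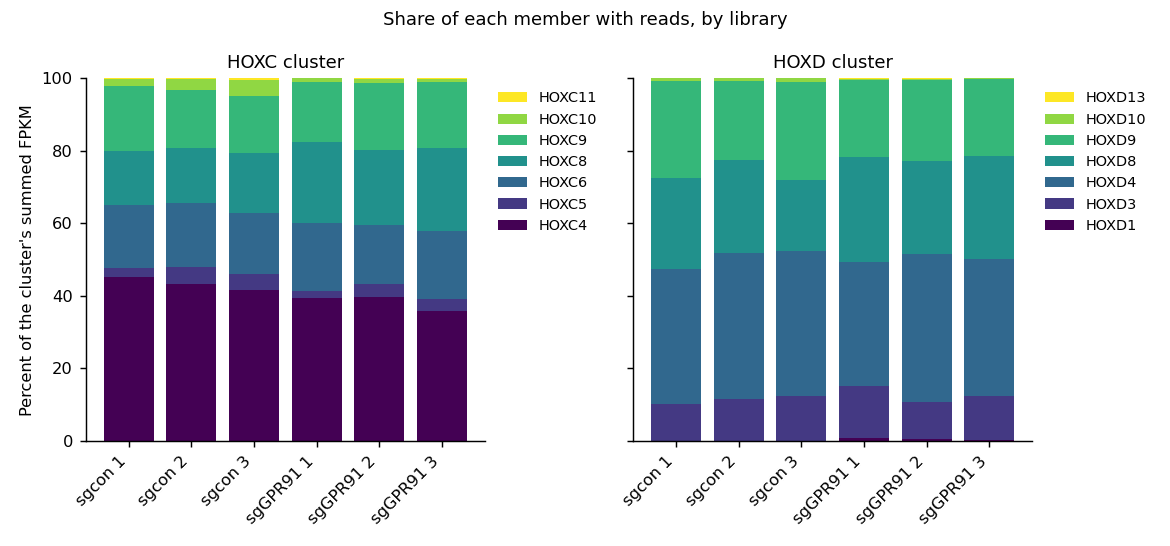
Share of each gene in the summed FPKM of its cluster, in percent, for each library of HOXC and HOXD. The HOXC8 share is larger in all libraries labelled sgGPR91 (20.7% to 22.7%) than in those labelled sgcon (15.0% to 16.4%), and HOXC4 holds the largest share in each HOXC library.

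Ratios between members within a library do not depend on library scaling. The ratio of HOXC8 to HOXC9 reads was 1.23, 1.39 and 1.51 in sgcon and 1.98, 1.62 and 1.80 in sgGPR91. The ratio of HOXC10 to HOXC9 was 0.161, 0.280 and 0.400 in sgcon and 0.0909, 0.0889 and 0.0625 in sgGPR91. Neither ratio overlapped between groups. Each of the 4 ratios given here holds a member already called, so they are no evidence separate from the calls. HOXC8 to HOXD8, paralogs on different chromosomes, was 0.675, 0.709 and 0.925 in sgcon and 1.16, 0.986 and 1.18 in sgGPR91. HOXD9 to HOXD8 overlapped between groups. In an exact two-sided permutation test the first 3 ratios reached p = 0.1, which is the smallest p that 3 against 3 libraries allow (0.133 adjusted over the 4 ratios), and HOXD9 to HOXD8 gave p = 0.2.

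The genes that flank the clusters were called in both directions or not at all. CALCOCO2, beyond HOXB13, went from 132.2 ± 6.22 to 74.8 ± 5.97 CPM (SD, n = 3 per group), a log2 fold change of -0.82 ± 0.077 (SE; edgeR adjusted p = 4.855e-07), while no HOXB gene had a read in either group. SNX10, before the HOXA cluster, had 5, 12 and 8 reads in sgcon and 16, 28 and 14 in sgGPR91, a log2 fold change of 1.25 (edgeR adjusted p = 0.0302). SNX10 passed the count filter only because of its sgGPR91 libraries. The SNX10 call was lost without sgGPR91 replicate 2 (adjusted p = 0.186) or sgcon replicate 1 (0.109), and with DESeq2 (0.0789). CALCOCO1, 211.1 kb before HOXC13, and LNPK, 89.9 kb before HOXD13, were lower by small amounts, with log2 fold changes of -0.20 and -0.21 (edgeR adjusted p = 0.0441 and 0.0354). Both calls were lost in 5 or more of the 6 fits that left out 1 library, with adjusted p up to 0.162 for CALCOCO1 and 0.182 for LNPK. DESeq2 and limma called neither, with adjusted p of 0.0833 to 0.104 for CALCOCO1 and 0.0649 to 0.0665 for LNPK. HIBADH, SNX11, SMUG1 (65.2 kb after HOXC4) and MTX2 (78.5 kb after HOXD1) were not called. HIBADH had an adjusted p of 0.0875 in edgeR, and 0.0246 without sgcon replicate 1.

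Among the TALE cofactors, the PBX, MEIS and PKNOX proteins that bind DNA beside HOX proteins, all 10 listed genes were tested, 1 was higher and 3 were lower, with a median log2 fold change of -0.23. Over all genes tested 41.1% were called, 20.2% higher and 21.0% lower, so the called share of this list was near the background. MEIS2 went from 216.7 ± 14.2 to 137.5 ± 3.46 CPM (SD, n = 3 per group), a log2 fold change of -0.66 (edgeR adjusted p = 1.803e-06). MEIS1 went from 135.7 ± 6.51 to 101.5 ± 7.66 CPM, a log2 fold change of -0.42 (edgeR adjusted p = 2.857e-04). MEIS3 moved the other way, from 35.5 ± 2.26 to 46.0 ± 4.07 CPM, with a log2 fold change of 0.37 (edgeR adjusted p = 0.00584). PBX3 had a log2 fold change of -0.27 (edgeR adjusted p = 0.0227), a call lost without sgcon replicate 1 (0.0900) or 2 (0.0502) or sgGPR91 replicate 1 (0.127) or 2 (0.0529).

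Of 19 Trithorax-side genes tested, 8 were lower and 0 higher, with a median log2 fold change of -0.17. The called share was near the 41.1% of all genes tested that were called in either direction. Since all 8 were lower, the lower share stood above the 21.0% of all genes called lower. The higher share of 0 stood against 20.2% of all genes. No test of the list was run. AFF1, an elongation factor subunit, fell from 481.1 ± 29.2 to 177.1 ± 13.5 CPM (SD, n = 3 per group), a log2 fold change of -1.44 (edgeR adjusted p = 9.869e-10). KMT2A, the histone methyltransferase that maintains HOX expression, fell from 502.7 ± 13.3 to 359.2 ± 12.5 CPM, a log2 fold change of -0.49 (edgeR adjusted p = 2.945e-05). DOT1L, a histone H3 methyltransferase that works with such elongation factors, fell by 0.57 on the log2 scale, and the demethylase gene KDM6B fell by 0.34. DESeq2 and limma also called 0 of the 19 higher, and 0 were higher at an unadjusted edgeR p under 0.05.

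Of 35 Polycomb-side genes tested, 13 were lower and 3 higher, with a median log2 fold change of -0.16, against 21.0% of all genes lower and 20.2% higher. DESeq2 called 1 of the 35 higher and limma 2. PCGF2 and CBX8, subunits of the Polycomb repressive complex that modifies histone H2A, each fell by 0.48 on the log2 scale. AEBP2 and ASXL1 each fell by 0.44. EZH2, the catalytic subunit of the other Polycomb complex, chosen here after its values were seen, went from 240.9 ± 4.79 to 191.2 ± 6.24 CPM (SD, n = 3 per group). Of 9 chromatin architecture genes 4 were lower and 0 higher by edgeR, with a median of -0.18. The lower ones were MAZ (-0.49), STAG2 (-0.34), SMC3 (-0.33) and NIPBL (-0.26). Over all genes 41.1% were called, 21.0% lower and 20.2% higher, and no test of the list was run. DESeq2 and limma also called 0 of these 9 higher, and at an unadjusted edgeR p under 0.05 only SMC1A passed in that direction (log2 fold change of 0.17). Without sgcon replicate 3 SMC1A was called (edgeR adjusted p = 0.0253). The MAZ call was lost without sgGPR91 replicate 2 (edgeR adjusted p = 0.0522). CTCF, which binds at boundaries within HOX clusters, stood at 83.7 and 87.8 CPM and was not called.

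Of 26 upstream and retinoid genes, 15 were tested, 7 higher and 5 lower, with a median of 0.022, against 20.2% and 21.0% of all genes tested. DESeq2 called 5 of the 15 higher and limma 7. CDX2 and CDX4, caudal-type activators of HOX genes, had no read, nor had FGF8, RXRG, ALDH1A1 and CYP26A1. The retinoid genes DHRS3, a retinaldehyde reductase gene, and RARB, a retinoic acid receptor gene, rose by 1.70 and 0.84 on the log2 scale (edgeR adjusted p = 0.00249 and 3.13e-05). DHRS3 had few reads, 24 in sgcon and 76 in sgGPR91, and its difference was 0.57 on the log2(FPKM + 1) scale. DHRS3 passed the count filter only because of its sgGPR91 libraries. CDX1 had a log2 fold change of -1.68 with 44 reads in sgcon and 13 in sgGPR91 (edgeR adjusted p = 0.0214). CDX1 passed the count filter through the sgcon libraries alone, the group where it was high. Its call was lost with DESeq2 (0.0644) and in edgeR without sgGPR91 replicate 1 (0.105) or 2 (0.0706) or without sgcon replicate 2 (0.116).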

How the data were processed

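Trizol extracts were turned into libraries with the NEBNext Ultra kit, per the labels' protocols. HISAT2, Bowtie2 and RSEM were used, per the submitters' processing notes; their settings and the build are not given in the sources here. The read counts are deposited as whole, unnormalized reads per gene, per the file headers. FPKM as deposited equals the count per kilobase of listed length, scaled to the column total, tested on 90322 values (largest relative difference 5.14e-15). Of the 19937 rows, 581 had no name and 7 names stood on several rows. GENCODE version 29 (GRCh38) holds all 39 HOX identifiers, with 39 identical strands, 24 identical starts and 20 identical ends; cluster positions and distances are those of the deposited table.

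Libraries were grouped by title, 3 per group. Nothing in the labels says that they came from separate cultures, so the spread behind each p-value is that among these libraries and may be technical. Counts were fitted over all genes with edgeR 4.0.16 in R 4.3.3 (filterByExpr with minimum count 10 and minimum total 15, TMM scaling, quasi-likelihood test without covariates, Benjamini-Hochberg adjusted p under 0.05). The procedure was tested on simulated data. CPM values are TMM-scaled, and SE is the absolute log2 fold change over the square root of F. Intervals and floors (3 reads) cover counting error only. Homeoboxes were located by translating GENCODE transcripts.

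Alternatives were RLE scaling, DESeq2 1.42.0, no filter, a filter of 30 reads in 3 libraries, limma 3.58.1 on log2(FPKM + 1) and log2(FPKM + 0.1), the replicate block and leaving out each library. HOX members and lists were chosen with earlier results of these data known. Library values are given for the HOX genes called and for the highest not called of each cluster; in each list up to 4 called genes of largest change are named, with the nearest tested gene on each side of each cluster. A few genes and sequences are not reported here.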

Additional observations from a re-analysis of the deposited data

How the results depend on the processing

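The HOX gene called higher was HOXC8 in all 13 alternatives, with adjusted p of 0.00149 to 0.0263. The number of HOX genes called lower was 2, and it was 1 with DESeq2 (HOXD9 lost), 1 with the filter of 30 reads in 3 libraries (HOXC10 and HOXC5 gave no value there), and 1 to 2 when leaving out a library. HOXC10 stayed called in its 12 alternatives, with adjusted p of 0.00166 to 0.0273. The 6 regulator, cofactor, retinoid and homeobox lists held 10, 19, 35, 9, 15 and 7 tested genes. Of these 48 were called, where 41.1% of all genes tested were called. The list count was 31 to 51 without 1 library, the 31 being without sgGPR91 replicate 2. All genes called were 5221, and 4108 to 5707 without 1 library. With the replicate number as a block, 1 HOX gene was higher and 2 were lower, 50 list genes and 5670 of all genes were called, and HIBADH gained a call (adjusted p = 0.0203). Deviations from the group means correlated at 0.15, 0.017 and 0.084 between same-numbered libraries and at -0.13 to 0.053 between differently numbered ones. The labels do not say that the numbers mark a shared culture or day, so the main fit did not pair the libraries. The summed HOXC log2 ratio was 0.023 (-0.0067 to 0.061 without 1 library) and that of HOXD -0.21 (-0.26 to -0.19). Among the genes named and tested, the log2 fold change turned its sign only for HOXD8, SNX11 and MTX2, none of them called. HOXD8 ranged from -0.14 to 0.042 without 1 library (0.013 without sgcon replicate 1), SNX11 from -0.10 to 0.16 (-0.025 without sgcon replicate 2) and MTX2 from -0.11 to 0.079 (-0.0061 and -0.028 without sgGPR91 replicates 1 and 3). The cause of these changes was not tested. Depth limits HOXC5, HOXC10, HOXC11, HOXD1, HOXD10 and HOXD13, where single reads move the values.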

Other observations

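Other homeobox genes of the same class were mostly at trace levels. Of 27 ParaHox and other Antennapedia-class genes listed, 7 passed the count filter, with 3 genes higher and 1 lower in sgGPR91 and a median log2 fold change of 0.17. Over all genes tested 20.2% were higher and 21.0% lower. DESeq2 called 2 of the 7 higher and limma 3. Those at 0 in all libraries were GSX1, PDX1, EVX1, EVX2, NKX2-2, TLX1, TLX3 and LBX1. TLX2, a homeobox gene of enteric and autonomic neurons, was the highest listed, at 52.5 ± 2.81 CPM in sgcon and 74.6 ± 3.89 CPM in sgGPR91 (SD, n = 3 per group), a log2 fold change of 0.50 (edgeR adjusted p = 1.103e-04). MSX2, a craniofacial and neural crest gene, went from 6.13 ± 1.26 to 11.6 ± 0.843 CPM, a log2 fold change of 0.92 (edgeR adjusted p = 0.00107). DLX5, another neural crest homeobox gene, had 45 reads in sgcon and 16 in sgGPR91, a log2 fold change of -1.44 (edgeR adjusted p = 0.0143). DLX5 passed the count filter through the sgcon libraries alone, the group where it was high. The DLX5 call was lost with DESeq2 (adjusted p = 0.0679) and without sgGPR91 replicate 1 (0.0539) or 2 (0.0616). LBX2 had a log2 fold change of 0.50 (edgeR adjusted p = 0.0473), lost with DESeq2 (0.0921) and without sgcon replicate 3 (0.144) or any of the sgGPR91 replicates (0.0822 to 0.128).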
